A study of Rattus norvegicus with 2 samples.

Results

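The acyl-CoA dehydrogenases are the enzymes that open each round of fatty acid beta-oxidation, and 5 of the 1185 genes on the array belong to them. They are every spot whose deposited gene name contains acyl-CoA dehydrogenase or acyl-coenzyme A dehydrogenase, a choice made with earlier results of these data known. These are the short chain (Acads), short-branched-chain (Acadsb), medium chain (Acadm), long chain (Acadl) and very long chain (Acadvl) enzymes. Acads, Acadm and Acadvl were above background on all 6 membranes, Acadl on 4 and Acadsb on 0. None of the 5 passed the test between chronic hypoxia and normoxia, in a limma comparison that called 0% of the 1038 genes tested, 75 of them with an unadjusted p under 0.05. The differences went both ways, with Acads, Acadl and Acadvl higher in chronic hypoxia and Acadm and Acadsb lower.

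The cells came from carotid bodies of Sprague Dawley rats, the organs at the carotid bifurcation whose glomus cells sense arterial oxygen. Cultures of 16 carotid bodies, dissociated with collagenase and kept in medium with horse and fetal bovine serum and nerve growth factor, were held for 7 days at 21% oxygen (normoxia) or at 1% oxygen in a sealed hypoxia chamber (chronic hypoxia). The cells were not sorted, and RNA was amplified before it was labelled with 32P and hybridised to a nylon membrane. Each condition has 3 membranes. The labels call them replicates without saying whether each came from its own culture. Every p-value therefore compares membranes, whose differences may be a technical matter, and their number limits the precision. The SEs, intervals and p-values from limma also draw on the spread of all tested genes, most of them at background, and not on the gene's own spread alone.

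Acyl-CoA dehydrogenases remove a pair of hydrogens from the acyl chain of a fatty acyl-CoA inside the mitochondrion. Their bound FAD hands the electrons to electron transfer flavoprotein, and from there they enter the respiratory chain, whose final acceptor is oxygen. The members divide the work by the length and shape of the chain: Acadvl sits at the inner membrane and takes the longest chains, Acadl and Acadm shorter ones, and Acads the last, butyryl-CoA step. Acadsb acts on short branched chains such as those made from isoleucine and so belongs mostly to amino acid breakdown. Hypoxia-inducible factors are known to lower fatty acid oxidation in several cell types, and the genes of the pathway are known targets of the peroxisome proliferator-activated receptors, which bind DNA with retinoid X receptors.

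RefSeq promoter windows (GRCr8), from 250 bases before to 50 after the gene start, were at hand for 4 of the 5 genes: Acads, Acadsb, Acadm and Acadvl. Printed are those of Acads and Acadsb, the members whose groups did not overlap, and of Acadvl, the member whose window holds the nuclear receptor half-site. The Acads window lies at chr12:47154083-47154382 on the plus strand, the Acadsb window at chr1:195618966-195619265 on the plus strand and the Acadvl window at chr10:55236656-55236955 on the minus strand. Each is written 5′ to 3′, and capitals mark matches on either strand to the half-site AGGTCA, to the core of the hypoxia response element (ACGTG or GCGTG) and to the GC box GGGCGG.
Acads: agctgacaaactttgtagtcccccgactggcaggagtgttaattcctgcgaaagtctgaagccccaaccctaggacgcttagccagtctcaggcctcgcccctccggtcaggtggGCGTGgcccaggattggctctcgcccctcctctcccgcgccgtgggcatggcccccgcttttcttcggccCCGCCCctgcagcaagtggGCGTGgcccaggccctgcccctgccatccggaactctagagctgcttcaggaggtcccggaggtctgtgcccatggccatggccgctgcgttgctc
Acadsb: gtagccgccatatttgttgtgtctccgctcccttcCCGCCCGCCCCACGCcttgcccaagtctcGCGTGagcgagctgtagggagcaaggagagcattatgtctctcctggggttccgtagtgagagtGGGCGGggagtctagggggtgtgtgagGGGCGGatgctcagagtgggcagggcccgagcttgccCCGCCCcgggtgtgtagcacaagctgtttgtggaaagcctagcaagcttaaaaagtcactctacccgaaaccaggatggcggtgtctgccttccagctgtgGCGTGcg
Acadvl: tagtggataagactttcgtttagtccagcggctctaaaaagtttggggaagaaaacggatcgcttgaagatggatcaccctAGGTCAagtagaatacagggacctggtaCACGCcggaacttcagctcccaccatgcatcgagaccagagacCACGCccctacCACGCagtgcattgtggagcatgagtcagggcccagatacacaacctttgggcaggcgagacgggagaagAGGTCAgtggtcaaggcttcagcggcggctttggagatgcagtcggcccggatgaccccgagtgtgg
The hypoxia response core had 2 matches in Acads, 3 in Acadsb, 2 in Acadm and 3 in Acadvl, and 41.6% of the 33469 RefSeq promoter windows of that length hold at least 1. The half-site AGGTCA had 2 matches in Acadvl and 0 in the other 3 windows, against 16.2% of windows with a match. The GC box had 1 match in Acads, 5 in Acadsb, 3 in Acadm and 0 in Acadvl, against 33.1%. In Acadsb the first pair of GC box matches overlap and run into a hypoxia response core, which gives the long run of capitals. A match is a description of the letters and not a site.

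Of the whole array, 144 genes were above background on at least 3 membranes, 894 on none, and 66 to 197 on a single membrane. A spot was called above background where its intensity lay more than 3 spreads over the membrane's median, the spread being taken from the dimmer side of that median. Chronic hypoxia membrane 3 stood apart, with a lowest intensity of 14591 and a median of 16411, against medians of 1704 to 3409 on the other 5. Deposited values came in steps near 52 on normoxia 1 and 51.5 on chronic hypoxia 1 (first step size), of 103 on normoxia 2, normoxia 3 and chronic hypoxia 2 (second step size), and closer together, near 28, on chronic hypoxia 3. The labels name no reason for these steps, and grouping membranes by them is an inference from the values. Of 8 glomus cell markers found by name, Slc6a3, Dbh, Cpe and Slc18a3 were above background on at least 3 membranes. The other 4, Ddc, Slc18a2, Chga and Drd2, were above background on none. None of 5 markers of adipocytes and liver cells, which burn or store much fat, reached 3 membranes, and Plin1 was above background on 1. Lpl and Fabp4 of these 5 are also in the list of fatty acid uptake and binding genes, and the liver form Fabp1, which is in that list and not among the 5, was above background on 4 membranes, 2 of each group. The summed intensity of the 5 markers, without Fabp1, was 13072 to 20444 in normoxia and 10737 to 86663 in chronic hypoxia. The highest sum was on chronic hypoxia membrane 3, where every spot read at least 14591 and none of the 5 was above background. No marker read 0 on any membrane. No marker of glia (2) or immune cells (3) was above background on any membrane, while 1 of 4 endothelial and 1 of 2 fibroblast and matrix markers reached 3. In these mixed cultures, fewer cells of a type and less RNA per cell cannot be told apart.

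Acads, the enzyme of the butyryl-CoA step, gave intensities of 54979, 24675 and 64876 on normoxia membranes 1 to 3 and of 59887, 64863 and 60923 on chronic hypoxia membranes 1 to 3. Normoxia membrane 2 was low, and the deposited intensities of the groups overlap. Normoxia membrane 3 and chronic hypoxia membrane 2 lay within 5% of the scanner's ceiling of 65535, so differences are not exact and no fold is given. When the spots of each membrane were ordered from the brightest down, Acads held places 14, 18 and 10 of 1185 in normoxia and 6, 3 and 5 in chronic hypoxia. The normalized log2 intensity, which follows this order, was 15.36, 15.19 and 15.56 in normoxia and 15.70, 15.81 and 15.73 in chronic hypoxia. On this scale the chronic hypoxia values lay above the normoxia values, unlike the deposited intensities. Within 5% of the ceiling lay 17 spots on normoxia 3 and 6 on chronic hypoxia 2, so the places of Acads there, and the separation that rests on them, are poorly resolved. Its mean was 15.37 ± 0.18 (SD, n = 3) against 15.75 ± 0.06 (SD, n = 3), so chronic hypoxia was higher by 0.38 on the log2 scale (SE 0.52, 95% interval from -0.77 to 1.53; limma adjusted p = 0.863, two-sided exact permutation p = 0.1). The SE of 0.52 is wide beside the SDs of Acads, since limma also draws on the spread of the other tested genes. In a fit limited to genes above background on at least 3 membranes the SE was 0.34. An exact test of 3 against 3 membranes cannot go below 0.1. Groups that did not overlap, with chronic hypoxia higher, were found for 67 of the 1038 tested genes, or 6.45%.

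**Figure D1:**
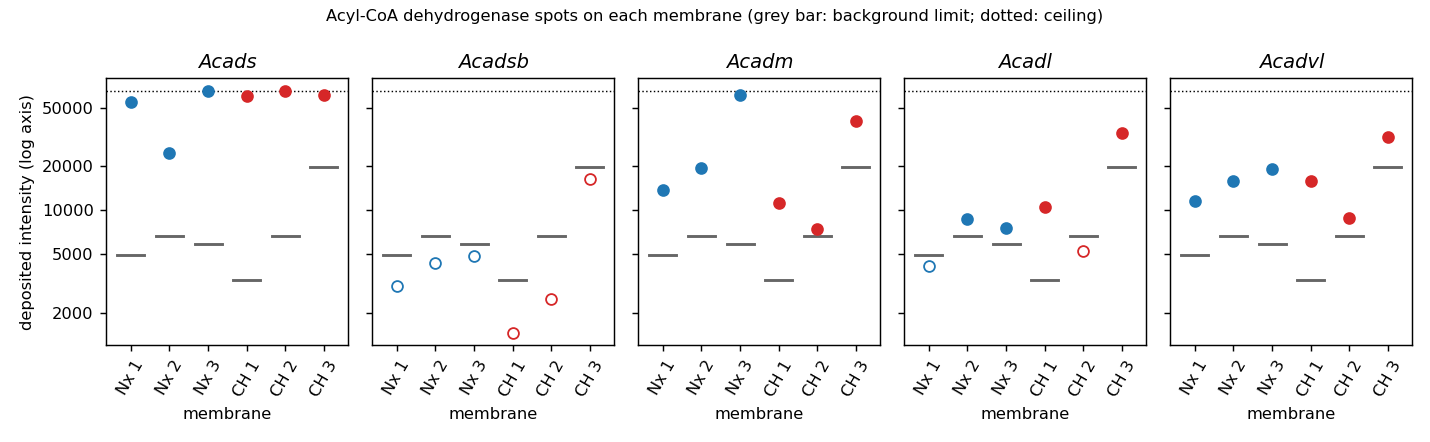
Deposited intensity (log axis) of the 5 acyl-CoA dehydrogenase spots on normoxia (Nx, blue) and chronic hypoxia (CH, red) membranes 1 to 3. Grey bars mark each membrane's background limit, open points lie below it, and the dotted line is the ceiling of 65535: Acads reads 54979 to 64876 on 5 membranes and 24675 on normoxia 2, while all 6 Acadsb points are open.

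Acadm, the medium chain enzyme, gave intensities of 13692, 19284 and 61367 in normoxia, membranes 1 to 3, and of 11201, 7442 and 40651 in chronic hypoxia. Normoxia membrane 3 was far above the other normoxia membranes, and the groups overlap. The spot held places 62, 29 and 20 in normoxia and 62, 56 and 36 in chronic hypoxia. The normalized log2 mean was 14.44 ± 0.85 (SD, n = 3) for normoxia against 13.84 ± 0.46 (SD, n = 3) for chronic hypoxia. The log2 difference of -0.59 (SE 0.62), or 0.663 times the normoxia level, had a 95% interval from -1.97 to 0.78 (limma adjusted p = 0.835, exact permutation p = 0.4). Leaving out normoxia 3 brought it to -0.23. Within the first step size, normoxia 1 and chronic hypoxia 1 held the same place and the difference was 0, and within the second it was -1.23. The second has chronic hypoxia 2 as its only chronic hypoxia membrane, where Acadm read 1.12 times the background limit. Beside it on the membrane, the alcohol dehydrogenase spot (ADH1) was likewise brightest on membrane 3 of each group, at 57883 and 52403. So was the cytochrome B5 spot, at 34793 and 16775. The neighbours Hmgcs1 and ATP5B were brightest on membrane 2 in normoxia and on membrane 3 in chronic hypoxia. Chronic hypoxia 3 was bright throughout, with a lowest intensity of 14591. The part of the neighbouring spots in the Acadm signal was not tested.

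Acadl, the long chain enzyme, gave intensities of 4138, 8691 and 7549 in normoxia and 10517, 5270 and 33615 in chronic hypoxia. It was above background on normoxia 2 and 3 and chronic hypoxia 1 and 3, and the groups overlap. Its places were 191, 74 and 177 in normoxia and 68, 136 and 60 in chronic hypoxia. The normalized log2 mean was 12.29 ± 0.79 (SD, n = 3) and 13.04 ± 0.71 (SD, n = 3), a log2 difference of 0.75 (SE 0.64), or 1.68-fold, with a 95% interval from -0.67 to 2.17 (limma adjusted p = 0.784, exact permutation p = 0.2). The direction turned between step sizes, which gave 1.57 in the first and -0.32 in the second. A fit with the step size as a block, in which chronic hypoxia 3 carries no weight, put it at 0.49. The means also take in normoxia 1 and chronic hypoxia 2, where the spot was not above background.

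Acadvl, the inner-membrane enzyme for the longest chains, gave intensities of 11563, 15837 and 19177 in normoxia and 15878, 8876 and 31603 in chronic hypoxia. It was above background everywhere, with places 72, 42 and 74 in normoxia and 46, 42 and 65 in chronic hypoxia. The best-placed membrane of each group shared place 42, so the groups overlap. The normalized log2 mean was 13.55 ± 0.52 (SD, n = 3) and 13.87 ± 0.38 (SD, n = 3), a log2 difference of 0.32 (SE 0.56), or 1.25-fold, with a 95% interval from -0.93 to 1.57 (limma adjusted p = 0.893, exact permutation p = 0.4). Its size and sign depended on the scaling. The difference was 0.02 where each membrane's log2 values were divided by a factor that brought them to a common median. Without normalization it was -0.19, where the median over all tested genes was -0.17 against 0.03.

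Acadsb, the branched-chain enzyme, gave intensities of 3045, 4345 and 4854 in normoxia and 1445, 2482 and 16411 in chronic hypoxia, none of them above background. The last value equals the median of chronic hypoxia membrane 3. Places, which tied spots share as their mean, were 380.5, 334 and 236.5 in normoxia and 780.5, 944.5 and 586 in chronic hypoxia, with no overlap. The normalized log2 mean was 11.25 ± 0.24 (SD, n = 3) against 10.01 ± 0.53 (SD, n = 3), so chronic hypoxia differed by -1.23 on the log2 scale (SE 0.56, 95% interval from -2.46 to -0.0022; limma p = 0.0497 unadjusted and 0.645 adjusted, exact permutation p = 0.1). Acadsb was the 1 member of 5 with an unadjusted p under 0.05, which 75 of the 1038 tested genes (7.23%) had. Groups that did not overlap, with chronic hypoxia lower, were found for 7.42% of tested genes, and in either direction for 13.9%. Since the spot was below background in both groups, no fold is given and the difference is between background-level signals.

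**Figure D2:**
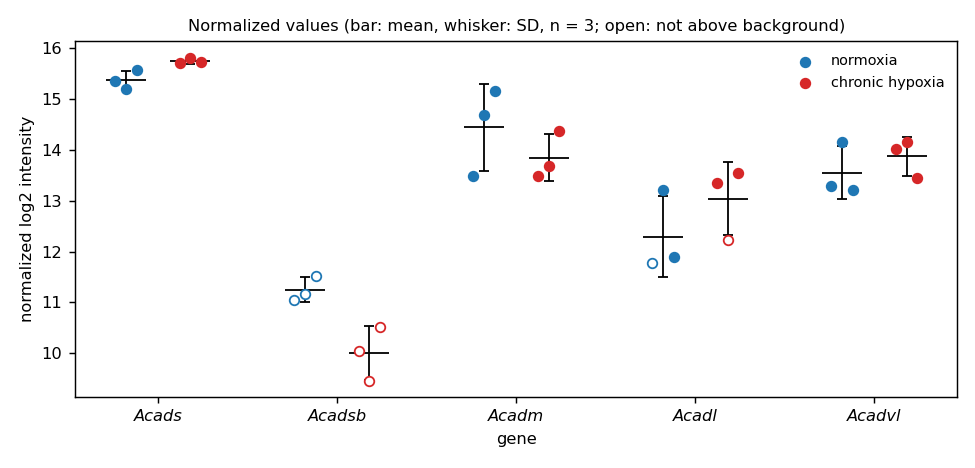
Normalized log2 intensity of each acyl-CoA dehydrogenase in normoxia (blue) and chronic hypoxia (red), with the mean and SD of 3 membranes and open points where the spot was not above background. The groups of Acads (15.37 and 15.75) and of Acadsb (11.25 and 10.01) do not overlap, while those of Acadm, Acadl and Acadvl do.

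The members differed among themselves in how they varied over the membranes. For each gene the normalized log2 values were centred on its own mean. Between pairs of the 4 members above background on at least 3 membranes, the mean absolute difference over 6 membranes was 0.39 for Acads and Acadvl, 0.54 for Acadl and Acadvl, and 0.65 to 0.72 for the other 4 pairs. The members of a pair lay on the same side of their means on 2 to 4 of the 6 membranes. By the same measure the genes most like Acads among 143 others above background on at least 3 membranes were carbonic anhydrase 4 (0.06), endothelial nitric oxide synthase Nos3 (0.12) and the NADP+ aldehyde reductase (0.15), against a median of 0.65 over all 143. These, like Acads, are spots near the top of the intensity range, where quantile normalization leaves little room to vary. Those most like Acadvl were ceruloplasmin (0.14), cathepsin E (0.19) and the glutamic acid decarboxylase GAD1 (0.24), against a median of 0.72. Acadm was nearest to carbonic anhydrase 5 (0.29), the endoplasmic reticulum protein CABP2 (0.33) and carboxypeptidase E (0.37), against 0.77. Acadl was nearest to the ribosomal protein RPL19 (0.32), the organic anion transporter (0.32) and ribosomal protein S12 (0.38), against 0.79. None of the nearest genes was another acyl-CoA dehydrogenase.

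Acadl, Acadvl and Acads are spotted side by side, at C09k, C09l and C09m. The row next to them holds dopamine beta-hydroxylase, acetylcholinesterase and the aldehyde reductase, and acetylcholinesterase, directly beside Acadvl, read 46038 to 65535. The aldehyde reductase spot beside Acads read 42378, 26245 and 64773 in normoxia and 52207, 49257 and 62132 in chronic hypoxia, lowest on normoxia 2 as Acads was. The brightest spot of normoxia 2 read 58956, against 65535 on normoxia 1 and 3, so a low reading there is not particular to neighbouring spots. On the other side of Acadl, Acadvl and Acads, thymidine kinase, adenylate kinase 3 and a cAMP-dependent protein kinase chain were dimmer than these on every membrane. Dopamine beta-hydroxylase, beside Acadl, read 33087, 18223 and 27875 in normoxia and 46698, 27903 and 58947 in chronic hypoxia. In chronic hypoxia the order over the membranes was the same as that of Acadl, lowest on membrane 2 and highest on membrane 3, while in normoxia Acadl was brightest on membrane 2, where dopamine beta-hydroxylase was dimmest. The part of neighbouring spots in the signals of Acads, Acadvl and Acadl was not tested.

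**Figure D3:**
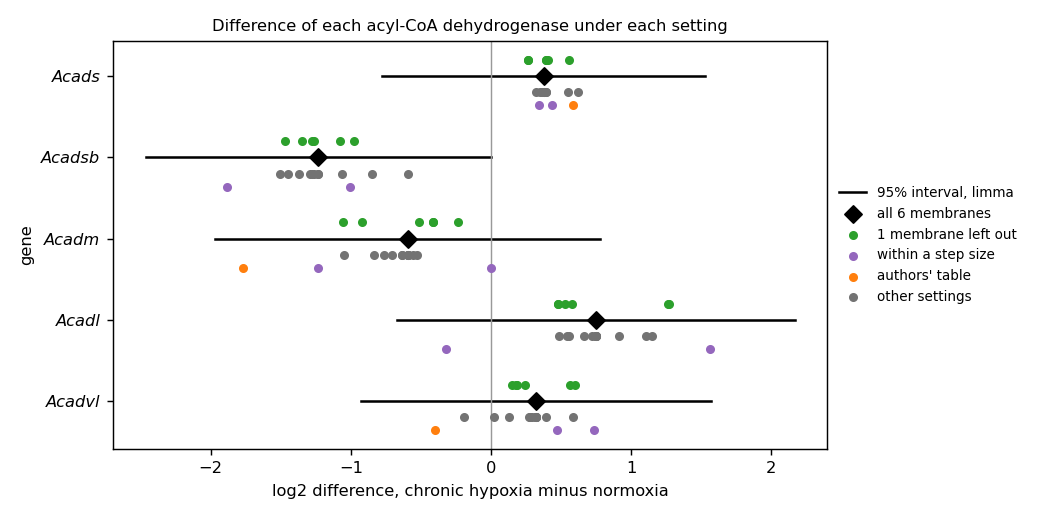
Log2 difference between chronic hypoxia and normoxia for each acyl-CoA dehydrogenase: the fit of all 6 membranes (diamond) with its 95% interval, the fits with 1 membrane left out (green), the differences within a step size (purple), the authors' table (orange) and other settings (grey). All points of Acads lie above 0 and all of Acadsb below 0, while Acadl and Acadvl have points on both sides and Acadm reaches 0.

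In the authors' deposited table, which holds 1 averaged and normalized intensity per condition, Acads stood at 41710 for normoxia and 62664 for chronic hypoxia, a ratio of 1.50. That ratio is not exact, since Acads lay near the ceiling on normoxia 3 and chronic hypoxia 2 and read low on normoxia 2. The authors' deposited table gave Acadm 26206 and 7688, a ratio of 0.293 that was the fifth lowest of the 132 genes above 0 in both conditions. Its Acadm value for chronic hypoxia lies below the intensities of chronic hypoxia membranes 1 and 3. Those intensities include background and are not scaled between membranes, so the 2 kinds of value are on unlike scales. Acadvl had 14717 and 11151 in the authors' deposited table, a ratio of 0.758 and so opposite in sign to the fit. The authors' deposited table listed Acadl at 0 for normoxia and 6422 for chronic hypoxia, although its spot was above background on 2 normoxia membranes, and Acadsb at 0 in both. How background was taken off for that table is not given in the sources used here.

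Of 8 other fatty acid oxidation genes described here, 5 stayed at background throughout, as did 894 of the 1185 array genes, 0 were above it on at least 3 membranes, and 0 passed in either direction or had an unadjusted p under 0.05 in limma. Of the 8, 3 were higher in chronic hypoxia and 5 lower. Their median log2 difference was -0.13, against 0.03 over all tested genes and 0.32 over the 5 acyl-CoA dehydrogenases. The 0.32 is the value of Acadvl, which turned to -0.19 without normalization and -0.40 in the authors' deposited table. The sign of the -0.13 median was not stable either. That median was 0.29 with the step size as a block, 0.22 without normoxia 3, 0.24 without chronic hypoxia 3 and 0.067 without normoxia 2. The carnitine shuttle, which carries long chains into the mitochondrion, had Cpt1a and Cpt1b at background on all membranes and Cpt2 above background on chronic hypoxia 3 alone. Cpt2 had normalized log2 means of 11.52 ± 0.12 (SD, n = 3) for normoxia and 12.03 ± 0.19 (SD, n = 3) for chronic hypoxia, with groups that did not overlap (log2 difference 0.51, SE 0.52, limma adjusted p = 0.832). Of all tested genes, 6.45% likewise had chronic hypoxia higher without overlap.

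Peroxisomal thiolase (Acaa1a), whose spot carries the names of both its A and B forms and is named here by the first, was above background on normoxia 3 alone. The acyl-CoA synthetase Acsl1, which activates fatty acids, was above background on 1 membrane of each group (log2 difference -0.16, SE 0.61). Scp2, Acot1 and Acsl6 were at background on all membranes.

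Among 11 genes of fatty acid uptake and binding, 8 stayed at background throughout, including the translocase Cd36 and lipoprotein lipase. Brain fatty acid binding protein (Fabp7), a marker of glial and radial glial cells, read 2789, 20838 and 38040 in normoxia and 2477, 5685 and 16399 in chronic hypoxia. It was above background on normoxia 2 and 3 alone, and its bound of 1.86-fold higher in normoxia is not a strict lower limit, since the mean takes in normoxia 1 (limma adjusted p = 0.645). The liver form Fabp1 was above background on 2 membranes of each group (log2 difference -0.24, SE 0.98) and Fabp5 on 1 normoxia membrane. The retinoid X receptors Rxra and Rxrb were at background on all 6 membranes. Of 5 genes of fatty acid and cholesterol synthesis, the cholesterol pathway enzyme Hmgcs1 passed the background limit on 2 membranes of normoxia and 1 of chronic hypoxia and differed by -0.53 (SE 0.70, log2), and Fasn, Acaca, Sqle and Fdft1 on none. Acaca and Fdft1 had an unadjusted p under 0.05 (log2 differences -1.54 and -1.50, limma adjusted p = 0.645 for each), both between background-level signals. The groups of Fdft1 did not overlap, with chronic hypoxia lower, as for 7.42% of tested genes, while those of Acaca did. Over all 26 of these other lipid genes, 24 were tested, 8 were higher and 16 lower in chronic hypoxia, and 0 passed in limma (2 with an unadjusted p under 0.05). Over all tested genes, 500 of 1038 were lower and the rest higher, and 75 (7.23%) had an unadjusted p under 0.05. Of the 26 lipid genes, 19 were at background on all membranes.

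**Figure D4:**
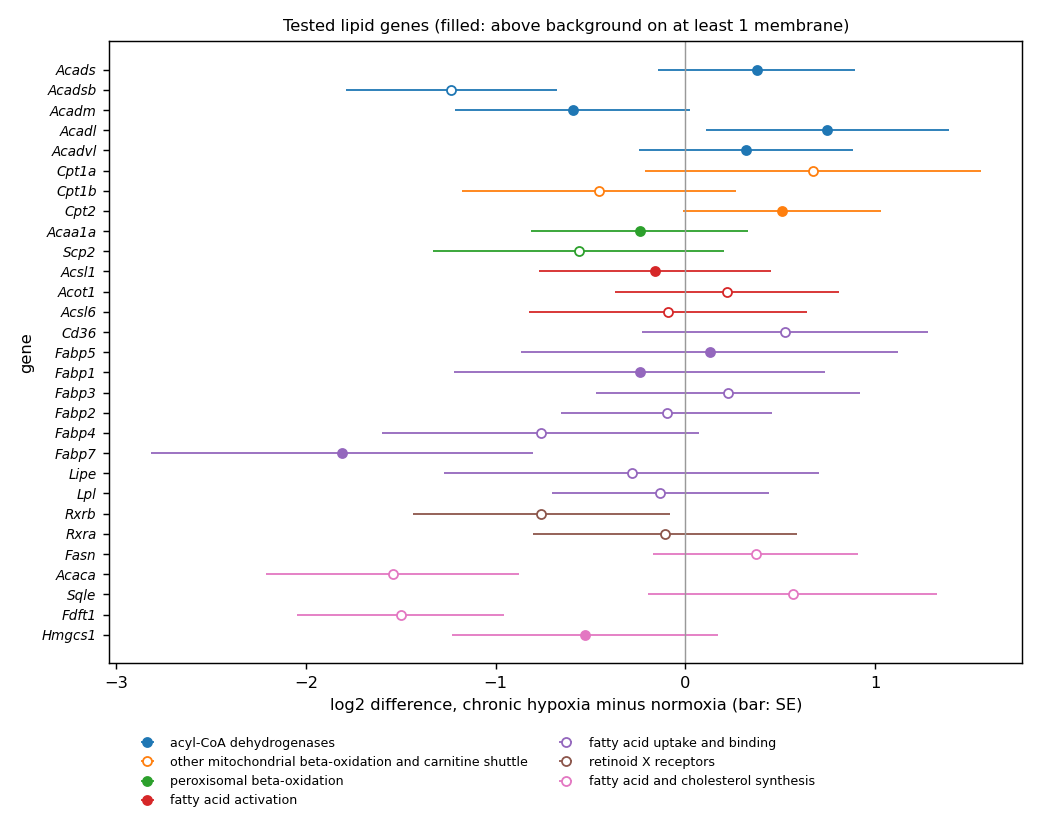
Log2 difference between chronic hypoxia and normoxia with its SE for the tested acyl-CoA dehydrogenases and the other tested lipid genes, coloured by group; filled points were above background on at least 1 membrane. Acadl at 0.75 and Acadm at -0.59 are the outermost filled acyl-CoA dehydrogenase points, Fabp7 at -1.81 is the outermost filled point of all, and none of the genes passed.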

How the data were processed

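Intensities of 6 Atlas Rat 1.2 nylon membranes were used, with 3 membranes per condition. Per the labels' protocols, the authors scanned them with a phosphorimager and quantified them with AtlasImage V2.0. The deposited intensity is 1 linear brightness per gene, with background included and no scaling between membranes. The authors' series table holds intensity values averaged over 3 membranes and normalized to the average signal, per the labels. Background was corrected with normexp (offset 50), log2 was taken, and quantile normalization followed (limma 3.58.1, R 4.3.3), so a normalized value follows the spot's place on its membrane. Genes brighter than the 25th percentile of 3 or more membranes were tested (1038 of 1185, with all 5 acyl-CoA dehydrogenases) with lmFit and eBayes, with no term other than group, and adjusted by Benjamini-Hochberg, called at an adjusted p under 0.05. The fit was tested on simulated data. Single genes also had two-sided exact permutation tests over 20 assignments. Intervals are 95%.

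The members, lists, rule for named genes and tests were chosen with earlier results of these data known. Named are all acyl-CoA dehydrogenases, the lipid list genes above background on any membrane, and for each detected member the 3 genes nearest to it; other list genes are named or counted, and Acaca, Fdft1 and the neighbouring spots were given values after these were seen. Lipid lists were drawn by words in the deposited names, and a sphingolipid galactosyltransferase caught by the words was left out. Symbols were assigned by hand from the deposited names, and all 31 were found in the RefSeq gene table of GRCr8. A few further genes of these lists are not reported here. Alternatives covered background correction, scaling, filter, membrane weights, blocks and left-out membranes. Figures were drawn with matplotlib 3.10.9 in Python 3.11.15. Probe sequences of the spots were not used here.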

Additional observations from a re-analysis of the deposited data

How the results depend on the processing

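None of the 5 acyl-CoA dehydrogenases passed under any alternative, and 0 genes of the array and 0 lipid genes were called in each of 18 refits, where the lowest adjusted p of any gene was 0.0512. Acads kept its direction in all 21 alternatives (0.26 to 0.62) and Acadsb in all 19 (-1.88 to -0.59). Acadm was below 0 in all but the first step size, where it was 0 (lowest -1.77, from the authors' deposited table). Acadl turned to -0.32 within the second step size. Acadvl turned to -0.19 without normalization and to -0.40 in the authors' deposited table; the cause was not tested. With 1 membrane left out the differences were 0.26 to 0.56 for Acads, -1.47 to -0.98 for Acadsb, -1.06 to -0.23 for Acadm, 0.47 to 1.27 for Acadl and 0.15 to 0.60 for Acadvl. Without chronic hypoxia membrane 3 they were 0.41, -1.47, -0.92, 0.48 and 0.57 in the same order. The median of the other fatty acid oxidation genes moved from -0.13 to -0.51 without normalization, 0.29 with the step size as a block and 0.18 within the first step size. With 1 membrane left out it ran from -0.27 to 0.24, with 0.22 without normoxia membrane 3 and 0.24 without chronic hypoxia membrane 3. The membrane numbers were not taken as pairs, since the labels do not say that a number marks a shared culture. Membranes of the same number deviated together only weakly (correlations over genes of 0.09, 0.11 and 0.02). Most genes were at background, so these correlations cannot show whether the numbers mark pairs. With the membrane number as a replicate block, 0 genes passed and the 5 differences were 0.38, -1.23, -0.59, 0.75 and 0.32. With chronic hypoxia membranes 1 and 3 counted as 1, the 5 differences were 0.39, -1.37, -0.63, 0.54 and 0.39 in the same order. The labels do not say whether these membranes share a culture, and their independence was not tested. This setting and the differences within a step size were added after the data were seen. Acadsb has no value under the filter to genes above background. Signal over background limits Acadsb and, on 2 membranes, Acadl, and the ceiling limits Acads. Acadm and Acadvl were close to background on chronic hypoxia 2, at 1.12 and 1.34 times its limit.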
